A study of Mus musculus with 19 samples.

Results

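Glutathione S-transferases join the tripeptide glutathione to electrophiles such as drug metabolites and products of lipid peroxidation, and the liver is one of the tissues richest in them. Cytosolic forms fall into classes named by Greek letters, with alpha (Gsta), mu (Gstm), pi (Gstp) and theta (Gstt) genes mostly standing in clusters that arose by duplication. The genes described here are the rows of the deposited liver RNA-seq table with the symbols Gsta2, Gsta3, Gsta4, Gstm1, Gstm2, Gstm3, Gstm6, Gstp1, Gstt1 and Gstt3. They are 10 of 24054 genes in the table, and all 10 were among the 11580 genes tested, those with a mean value of at least 1.

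RALY is an RNA-binding protein of the heterogeneous nuclear ribonucleoprotein family, and the comparison asked what its loss from hepatocytes does to the liver transcriptome. All mice were on the C57BL/6 background, fed chow and carried floxed Raly alleles (Raly flox/flox), and the study states male mice as its default. The 3 L-RalyKO mice had received AAV8.TBG.Cre, in which the hepatocyte-directed TBG promoter drives Cre, and the 3 controls, labelled wild type, AAV8.TBG.GFP, each 4 weeks before the liver was taken. Their age is not given in the sources used here, and the controls are described as littermates. The libraries held between 28302983 and 38052705 reads assigned to genes. Values are CPM (reads of a gene relative to the size of its library) with a scaling between libraries, not divided by gene length, and a gene with 3 reads had a value between 0.0789 and 0.105.

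Raly itself was at 6.34, 6.61 and 7.39 in the L-RalyKO mice and at 50.1, 48.6 and 46.8 in controls, a log2 fold change of −2.67 (SE 0.069, limma adjusted p = 6.92e-07). Fold changes throughout are differences on the log2(value + 1) scale, L-RalyKO against control, and adjusted p values are from limma with the Benjamini-Hochberg method over all tested genes. Whole liver holds several cell types, so that fewer cells of a type and less RNA per cell cannot be told apart. In all 6 mice Xist was between 0.0351 and 0.378 and the Y-linked Ddx3y between 75.2 and 90.9.

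Of the 10 transferase genes, 2 were higher in L-RalyKO liver (Gstm3 and Gstp1) and 2 were lower (Gstt1 and Gstt3) at an adjusted p under 0.05. Over all tested genes 3.36% were called higher, 3.19% lower and 6.55% in either direction. Groups did not overlap in 7 of the 10, against 28.1% of all tested genes, and 9 of the 10 had an unadjusted p under 0.05, against 22.7%. The median log2 fold change of the 10 was 0.22, and that of all tested genes 0.0044. The members were chosen with earlier results of these data known, so that these shares are given as a description.

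Upstream sequences of the 4 called genes are shown because genes of 1 family moved in opposite directions and the letters of known liver and stress response motifs can be read in them. Gsta3, which was not called, is shown for its match to TGACNNNGC, which no other member's window held. Each is the 250 bases before a RefSeq transcription start, from a table on GRCm38.p6, and each was found exactly once in NCBIM37 (mm9), the build of the study's alignment. In mm9 they lie at chr3:107772093-107772342 (Gstm3), chr19:4037913-4038162 (Gstp1), chr10:75260477-75260726 (Gstt1), chr10:75244160-75244409 (Gstt3), all on the − strand, and chr1:21230416-21230665 (Gsta3) on the + strand. They are written 5′ to 3′ on the gene's strand, and capitals mark matches, on either strand, to TGACNNNGC or TGAGNNNGC (core letters of the antioxidant response element, to which NRF2 binds with a small MAF protein), TTCNNNGAA (STAT factors), CCAAT (NF-Y) and TATAAA.
Gstm3: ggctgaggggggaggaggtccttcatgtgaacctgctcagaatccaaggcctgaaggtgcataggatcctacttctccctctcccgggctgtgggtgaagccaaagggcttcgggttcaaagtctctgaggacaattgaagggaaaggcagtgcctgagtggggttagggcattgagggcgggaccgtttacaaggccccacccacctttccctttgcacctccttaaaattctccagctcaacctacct
Gstp1: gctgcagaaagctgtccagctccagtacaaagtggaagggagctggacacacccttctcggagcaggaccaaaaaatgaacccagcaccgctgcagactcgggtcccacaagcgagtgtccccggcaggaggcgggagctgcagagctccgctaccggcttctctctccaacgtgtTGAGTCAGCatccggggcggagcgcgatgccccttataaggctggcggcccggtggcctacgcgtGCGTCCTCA
Gstt1: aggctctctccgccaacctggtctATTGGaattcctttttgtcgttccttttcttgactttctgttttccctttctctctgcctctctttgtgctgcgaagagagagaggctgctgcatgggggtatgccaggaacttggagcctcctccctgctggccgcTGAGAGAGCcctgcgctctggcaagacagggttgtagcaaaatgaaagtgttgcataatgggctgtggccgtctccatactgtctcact
Gstt3: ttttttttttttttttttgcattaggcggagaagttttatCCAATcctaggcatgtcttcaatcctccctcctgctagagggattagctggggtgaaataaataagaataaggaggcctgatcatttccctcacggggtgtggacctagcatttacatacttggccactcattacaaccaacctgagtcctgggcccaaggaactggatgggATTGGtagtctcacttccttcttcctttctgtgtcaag
Gsta3: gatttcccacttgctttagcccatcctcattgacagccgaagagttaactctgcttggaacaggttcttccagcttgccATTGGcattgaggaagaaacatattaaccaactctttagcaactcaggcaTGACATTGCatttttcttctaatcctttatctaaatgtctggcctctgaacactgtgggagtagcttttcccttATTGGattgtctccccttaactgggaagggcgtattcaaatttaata

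The Gstm3 window held none of these letters, whereas the Gstp1 window held TGAGTCAGC from 74 bases before the start and GCGTCCTCA, a match on the other strand, from 9 bases before it. In the Gstt1 window TGAGAGAGC began 89 bases before the start and ATTGG, the reverse complement of CCAAT, 226 bases before it. The Gstt3 window had CCAAT and ATTGG, and Gsta3 had TGACATTGC, 121 bases before its start, with a pair of ATTGG matches. Over the 13 windows that the table holds for 9 members, TGACNNNGC was found in 1, TGAGNNNGC in 2, TTCNNNGAA in 1 (Gstm6), CCAAT in 11 (7 members) and TATAAA in 2 (Gsta2 and Gstm1). Some windows of a member overlap each other. Of 32851 upstream windows of the same length, 10.2% hold TGACNNNGC, 14.4% TGAGNNNGC, 7.02% TTCNNNGAA, 33.8% CCAAT and 12.4% TATAAA. The TGAGNNNGC form was added to the search after the windows had been seen. These are matches of letters, and binding was not examined.

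In the GENCODE vM1 annotation of mm9, Gstm3 (ENSMUSG00000004038.7) spans chr3:107745251-107772201 on the − strand and Gstp1 (ENSMUSG00000060803.3) chr19:4035411-4037921 on the − strand. Gstt1 (ENSMUSG00000001663.4) spans chr10:75246558-75261329 and Gstt3 (ENSMUSG00000001665.4) chr10:75236860-75244159, both on the − strand. The windows of Gstm3, Gstp1 and Gstt1 end at a RefSeq start that lies inside the GENCODE gene span. The printed Gstt1 window is within that span as a whole, and the GCGTCCTCA of Gstp1 also falls inside the annotated gene.

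Among the mu genes, which encode abundant liver transferases for epoxides and quinones, Gstm3 rose and carried the largest fold change of the 10. It was at 106, 90.7 and 69.4 in L-RalyKO mice 1, 2 and 3 and at 43.0, 37.2 and 36.0 in the controls. All 3 knockout values lay above all 3 control values, with the lowest of the former 26.4 above the highest of the latter. The means were 88.8 ± 18.5 (SD, n = 3) and 38.7 ± 3.72 (SD, n = 3), a ratio of 2.29 and a log2 fold change of 1.16 (SE 0.14, adjusted p = 0.00312). Under 16 alternatives its fold change stayed between 1.02 and 1.32 with an adjusted p of at most 0.0155.

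**Figure D1:**
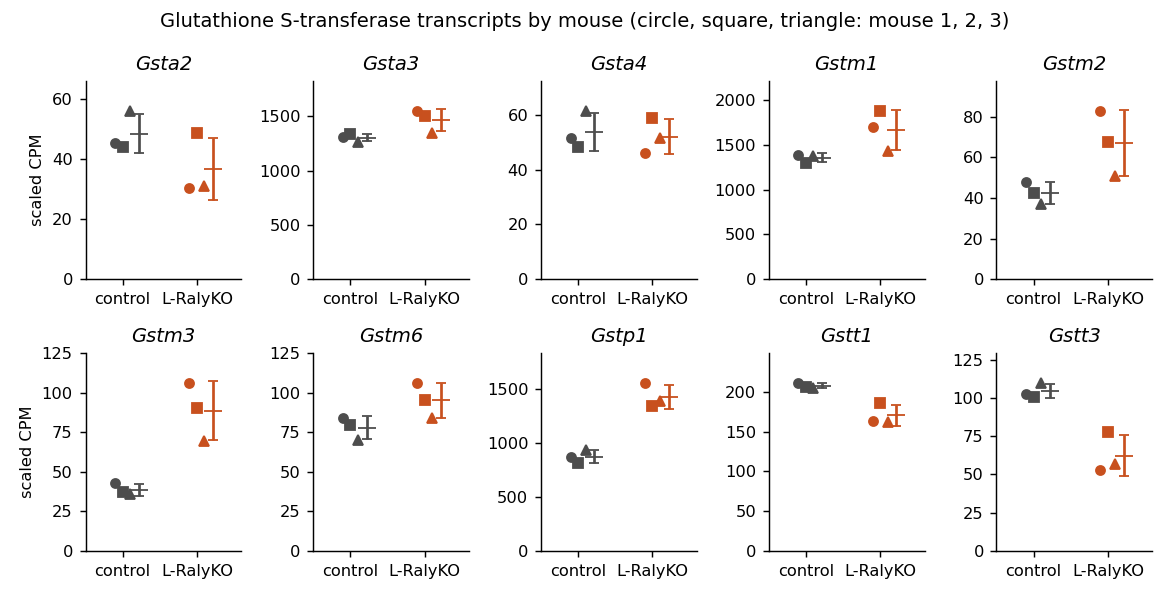
Values of the 10 transferase genes in each mouse (scaled CPM, linear axes from 0), controls in grey and L-RalyKO in orange, with symbols for mouse 1, 2 and 3 and the mean ± SD (n = 3) beside them. Gstm3 and Gstp1 lie higher and Gstt1 and Gstt3 lower in every L-RalyKO mouse than in any control.

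Gstm2, the next gene along the chromosome, was at 82.6, 67.7 and 50.5 in L-RalyKO and at 48.0, 42.2 and 37.0 in control mice. Groups did not overlap, by a margin of 2.53, but the adjusted p of 0.0571 (log2 fold change 0.63, SE 0.16) missed the threshold. It passed in DESeq2, with the replicate number as a block (adjusted p = 0.00793) and without L-RalyKO mouse 3.

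Gstm1, the most abundant mu transcript, was at 1698, 1877 and 1437 in L-RalyKO and at 1390, 1301 and 1380 in controls. The groups were apart by 46.4, and the log2 fold change of 0.29 had a 95% interval from 0.077 to 0.51 and an adjusted p of 0.108, with a call in DESeq2 (adjusted p = 0.0142) and without L-RalyKO mouse 3 (0.0302). Gstm6 was at 106, 95.4 and 83.8 against 84.2, 79.8 and 70.0, values that overlapped between the groups (log2 fold change 0.28, SE 0.095, adjusted p = 0.121). It passed with the replicate number as a block (adjusted p = 0.0236) and in DESeq2 (0.0486). The lowest L-RalyKO value of Gstm2, Gstm3 and Gstm6 was in mouse 3 each time, the highest in mouse 1, and among controls mouse 1 was highest and mouse 3 lowest for all of them.

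The mu genes lie side by side on chromosome 3, and their spans allow the changes to be read in order along it. From Gstm5 through Gstm7, Gstm6, Gstm3, Gstm2, Gstm1 to Gstm4 the log2 fold changes were −0.18, 0.20, 0.28, 1.16, 0.63, 0.29 and −0.11. Of these 7 Gstm3 alone passed the limma threshold, and the outermost genes, Gstm5 and Gstm4, had intervals that included 0. The annotated span of Gstm3 overlaps that of Gstm6 on the same strand, and 5.8% of the 50-base words of Gstm3 transcripts occur in Gstm6, with 9.46% in Gstm1. With the reads of Gstm3 and Gstm6 added together in each mouse the log2 fold change was 0.64 (adjusted p = 0.0146). Within a mouse, the ratio of Gstm3 to Gstm6 was 0.927 ± 0.089 in L-RalyKO and 0.497 ± 0.027 in controls (SD, n = 3), without overlap. An exact permutation test of this ratio gave p = 0.1 (two-sided), the smallest p that 3 mice against 3 allow.

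**Figure D2:**
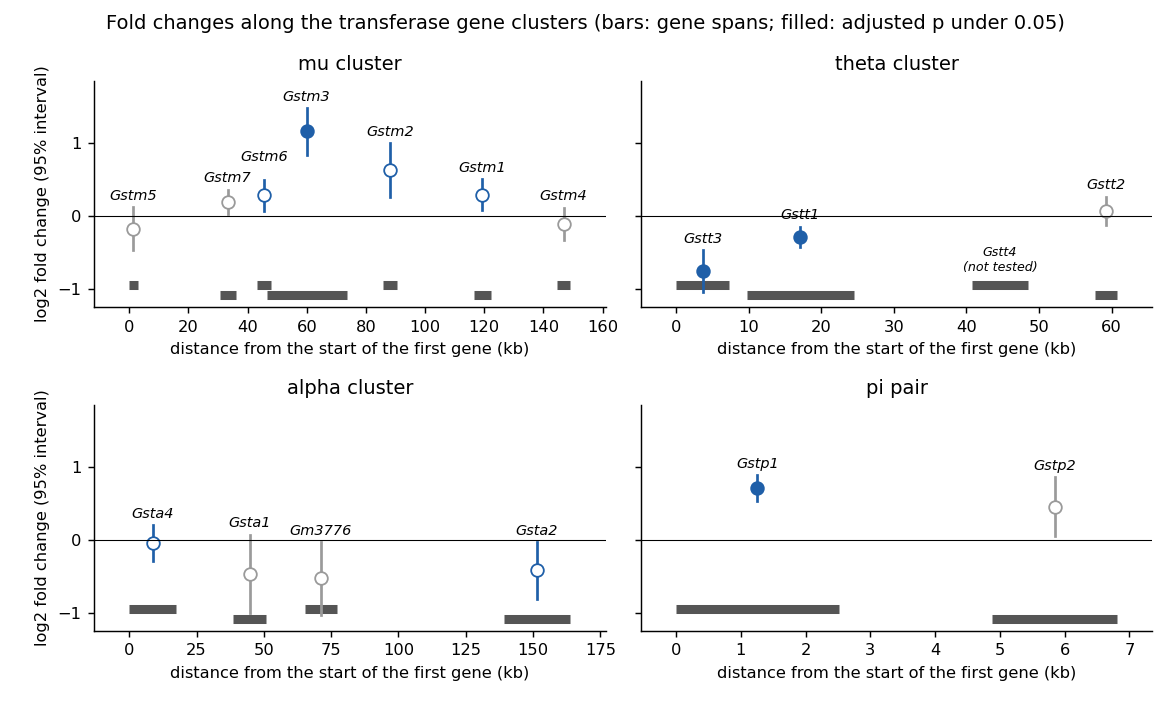
Log2 fold change (L-RalyKO against control, with 95% intervals) of the tested genes of the mu, theta, alpha and pi groups against the distance in kb from the start of the first gene of each group, with gene spans as bars below; members are blue, other transferases grey, and filled points have an adjusted p under 0.05. The highest point of the mu genes is Gstm3, and the called theta genes Gstt3 and Gstt1 are neighbours below 0.

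Gstp1, the pi-class transferase known for its high level in the liver of male mice, rose in every L-RalyKO mouse. Its values were 1552, 1334 and 1382 in L-RalyKO and 865, 810 and 932 in control mice. The lowest knockout mouse was 402 above the highest control. Means were 1423 ± 114 and 869 ± 60.9 (SD, n = 3), a ratio of 1.64 and a log2 fold change of 0.71 (SE 0.077, adjusted p = 0.00196). The adjusted p was at most 0.00977 under 16 alternatives, among which the fold change lay between 0.65 and 0.76.

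Gstp2, a neighbour that starts within the same few kilobases, shares 67.5% of the 50-base words of Gstp1, and reads of this pair can be split between them by the counting. Gstp2 was listed far lower, at 5.24, 4.93 and 4.71 against 4.65, 2.28 and 3.43, without overlap (log2 fold change 0.45, adjusted p = 0.167). Adding the reads of both left the log2 fold change of Gstp1 at 0.71 (adjusted p = 0.00200). Set against other abundant transferases of the same mouse, Gstp1 was 0.862 ± 0.133 times Gstm1 in L-RalyKO and 0.640 ± 0.031 times in controls (SD, n = 3). Against Gsta3 it was 0.973 ± 0.074 and 0.668 ± 0.065 times (SD, n = 3), and both ratios were without overlap (exact permutation p = 0.1 for each).

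The theta genes encode transferases that act on small halogenated compounds, and the 2 members among them fell. Gstt3 was at 52.6, 77.8 and 56.7 in L-RalyKO and at 103, 101 and 110 in controls. The groups were separated by 23.0, with means of 62.3 ± 13.5 and 104 ± 4.72 (SD, n = 3). The log2 fold change was −0.76 (SE 0.13, adjusted p = 0.0118), and it was between −0.92 and −0.65 under 16 alternatives, with an adjusted p of at most 0.0433.

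Gstt1 was at 164, 186 and 162 in L-RalyKO and at 211, 207 and 205 in controls. The controls lay within a narrow band, and the highest L-RalyKO mouse was 19.3 below the lowest control. Its log2 fold change of −0.29 (SE 0.060, adjusted p = 0.0290) was the smallest of those called. Under 16 alternatives the fold change stayed between −0.35 and −0.25, but the call depended on the setting: it was kept in 10 of 16 alternatives and lost without L-RalyKO mouse 1 (adjusted p = 0.108), L-RalyKO mouse 3 (0.0838), control mouse 1 (0.0943) or control mouse 2 (0.0689), and also with no filter on low genes (0.0511) and without the intensity trend (0.0670).

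Gstt2, another theta gene some kilobases away, was at 58.3, 74.4 and 66.8 against 61.2, 66.5 and 61.3, overlapping values with a log2 fold change of 0.07 (adjusted p = 0.673). Relative to Gstt2 in the same mouse, Gstt3 was at 0.901, 1.05 and 0.848 in L-RalyKO and at 1.68, 1.52 and 1.79 in controls. Relative to Gstt1 it was 0.363 ± 0.050 against 0.503 ± 0.027 (SD, n = 3), and neither ratio overlapped between groups (exact permutation p = 0.1 for each). Of the 50-base words of Gstt3 transcripts, 18.2% also occur in the gene model RP23-333M15.8, whereas Gstt1 shared none with another gene.

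No alpha-class member passed the threshold. Gsta3, which lies on chromosome 1 apart from the alpha genes of chromosome 9, detoxifies aflatoxin epoxide in mice, and was at 1545, 1503 and 1347 in L-RalyKO and at 1307, 1335 and 1265 in controls. The groups were apart by 12.2 (log2 fold change 0.17, 95% interval 0.016 to 0.32, adjusted p = 0.180). Gsta4, which conjugates the lipid peroxidation product 4-hydroxynonenal, was at 46.0, 58.9 and 51.5 against 51.7, 48.2 and 61.4, with a log2 fold change of −0.04 (95% interval −0.29 to 0.20, adjusted p = 0.860). Gsta4 was the member whose sign varied between settings, in 2 of 16 alternatives.

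Gsta2 was at 30.2, 48.5 and 30.9 in L-RalyKO and at 45.4, 44.0 and 55.8 in controls. L-RalyKO mouse 2 lay among the controls and the other knockout mice below them, so that the groups overlapped (log2 fold change −0.42, SE 0.17, adjusted p = 0.186). Without that mouse the adjusted p was 0.0202 and the log2 fold change −0.64. Gsta2 shares 32.9% of its 50-base words with Gsta1, and Gm3776 is a further copy. With the reads of Gsta1, Gsta2 and Gm3776 added the log2 fold change was −0.46 (adjusted p = 0.160).

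**Figure D3:**
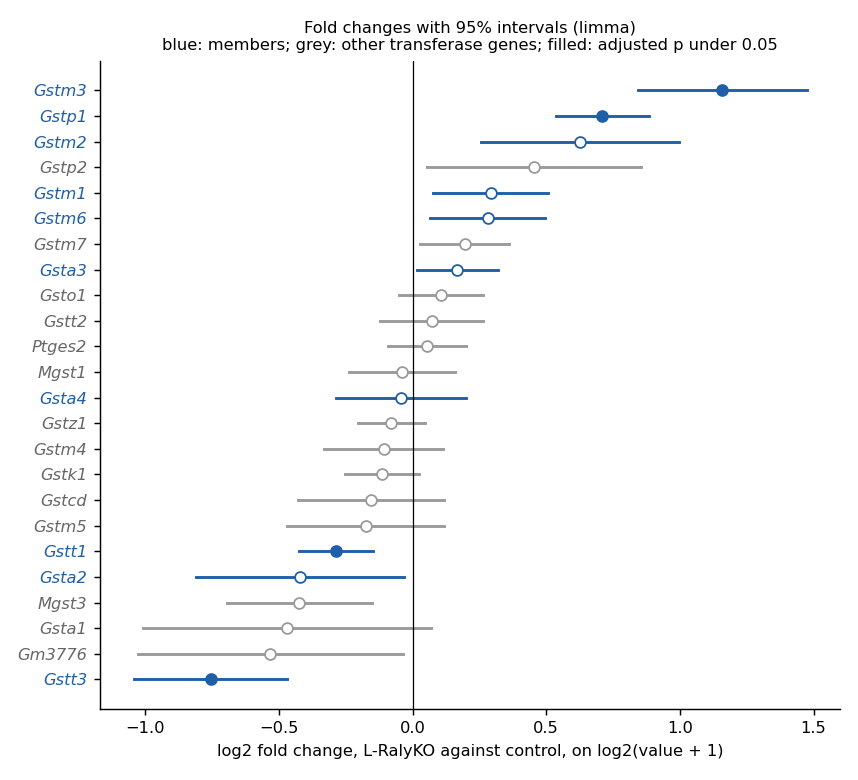
Log2 fold changes with 95% intervals of the 10 members (blue) and 14 other tested transferase genes (grey), sorted by size, on the log2(value + 1) scale; filled points have an adjusted p under 0.05. The filled points are Gstm3 and Gstp1 on the right and Gstt1 and Gstt3 on the left, and all grey points are open.

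The other transferases give the background of the family. Of 25 such genes listed, 22 were in the table and 14 were tested, and none passed the limma threshold, with 4 at an unadjusted p under 0.05. Mgst1, a membrane-bound transferase with the highest scaled CPM of the tested transferases in both groups, was at 2921, 3055 and 2715 against 3274, 2978 and 2705 (log2 fold change −0.04, 95% interval −0.24 to 0.16). Mgst3, which is membrane-bound as well, was at 6.98, 8.59 and 7.03 against 10.6, 12.0 and 8.79, without overlap (log2 fold change −0.42, adjusted p = 0.0735), and passed under 3 of 16 alternatives. Gstz1, the zeta enzyme of tyrosine breakdown, Gstk1 of mitochondria and peroxisomes, Gsto1, Ptges2, Gstcd, Gm3776 and Gsta1 had log2 fold changes of −0.08, −0.11, 0.11, 0.05, −0.16, −0.53 and −0.47, with overlapping groups.

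Levels between genes were compared per kilobase of annotated exon. In controls the order was Gstp1 at 1154, Gstm1 at 974, Gsta3 at 936, Gstt1 at 136, Gsta4 at 56.2, Gsta2 at 41.1, Gstt3 at 39.8, Gstm6 at 39.2, Gstm3 at 27.8 and Gstm2 at 25.3 CPM per kb. Neighbours in this order whose control mice overlapped were Gstm1 with Gsta3, Gsta2 with Gstt3, Gstt3 with Gstm6, and Gstm3 with Gstm2. In L-RalyKO liver the first 4 places were the same and Gstm3, at 63.7, stood next, ahead of Gsta4 at 54.5, Gstm6 at 47.8, Gstm2 at 39.9, Gsta2 at 31.0 and Gstt3 at 23.7. Mgst1, outside the members, was at 1483 in controls and 1439 in L-RalyKO on this scale, above Gstp1 in controls and below it in L-RalyKO. In L-RalyKO, from Gstm1 to Gsta3 and among the last 6 genes each neighbouring pair overlapped between mice.

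**Figure D4:**
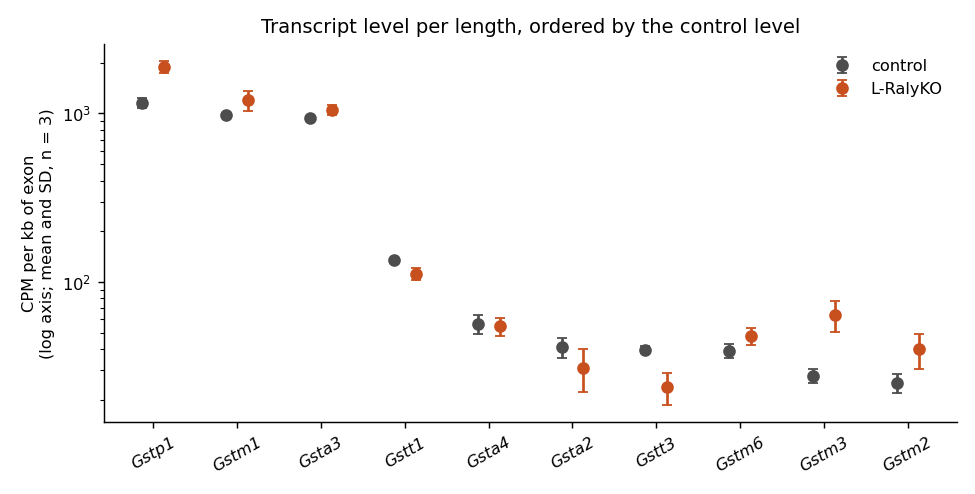
Level per length of the 10 transferase genes (CPM per kb of exon, log axis, mean ± SD, n = 3), ordered by the control level, in controls (grey) and L-RalyKO mice (orange). Gstp1, Gstm1 and Gsta3 stand well above the others in both groups, and Gstm3 moves from 27.8 to 63.7 while Gstt3 moves from 39.8 to 23.7.

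Summed over the 10 genes, values were 5131 ± 399 in L-RalyKO and 4102 ± 84.1 in controls (SD, n = 3), a ratio of 1.25 without overlap (exact permutation p = 0.1). The sum over all transferases of the table did overlap, at 9284, 9446 and 8329 in L-RalyKO and 8491, 7983 and 7866 in controls, and the other transferases alone were between 3659 and 4107 against 3714 and 4342. The 4 mu members together were at 1921 ± 253 against 1516 ± 53.0, the alpha members at 1554 ± 108 against 1405 ± 22.3, and the theta members at 233 ± 26.8 against 312 ± 4.32 (SD, n = 3), each with an exact permutation p of 0.1. Abundant genes set these sums. Gstm1 (means 1670 and 1357) held most of the mu sum and Gsta3 (1465 and 1302) most of the alpha sum. Neither was called, and the alpha members Gsta2 and Gsta4 had negative log2 fold changes. Gstp1, Gstm1 and Gsta3 held most of the sum over the 10. The members took between 0.466% and 0.531% of the reads of an L-RalyKO library and between 0.404% and 0.428% of a control library. The coefficient of variation among mice was larger in L-RalyKO than in control for 9 of the 10 (median 12.8% and 8.18%), whereas over all tested genes it was larger in L-RalyKO for 46.4% (median 6.25% and 6.70%). With 3 mice per group these spreads are imprecise, and their difference was not tested.

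Enzymes that make glutathione or recycle it showed no call. None of 10 tested genes of its supply passed (limma, 3 at an unadjusted p under 0.05), and Gclc, the catalytic subunit of the rate-limiting ligase, was at 251, 226 and 210 against 260, 247 and 233 (log2 fold change −0.11, adjusted p = 0.412). Of the transsulfuration path to cysteine, Cth had the highest mean of the list over all mice, with a log2 fold change of 0.16 (adjusted p = 0.385), and Cbs, highest in controls, was at −0.23 (adjusted p = 0.155). None of 15 tested genes of glutathione reduction and peroxidases passed (2 at an unadjusted p under 0.05), with Gpx1, the abundant glutathione peroxidase, at a log2 fold change of 0.07 (adjusted p = 0.541). DESeq2, edgeR and the other alternatives were run over the whole table, but were read out gene by gene for the transferase genes and not for these lists.

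Handling of the conjugates held 2 higher genes among 17 tested, and both encode kynurenine aminotransferases that also act as cysteine conjugate beta-lyases. Ccbl1 was at 104, 104 and 91.3 in L-RalyKO and at 68.3, 71.8 and 66.7 in controls (log2 fold change 0.53, adjusted p = 0.00312). Ccbl2 was at 187, 146 and 188 against 115, 104 and 128 (log2 fold change 0.58, adjusted p = 0.0185), again without overlap. Abcc2, the canalicular exporter of glutathione conjugates and the most abundant of this list, was at 647, 590 and 631 against 553, 569 and 584 (log2 fold change 0.13, adjusted p = 0.198).

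Among 6 other enzymes that use glutathione, Glo1, the first enzyme of methylglyoxal removal, fell. It was at 334, 327 and 310 in L-RalyKO and at 444, 401 and 409 in controls, without overlap (log2 fold change −0.37, SE 0.057, adjusted p = 0.00858). Hagh, the next enzyme of that path, was at 246, 238 and 233 against 202, 220 and 201 (log2 fold change 0.20, adjusted p = 0.0588). Adh5, which oxidises the glutathione adduct of formaldehyde, had the highest mean of these genes over all mice, whereas Glo1 was highest in controls. Adh5 was at 383, 402 and 376 against 375, 391 and 369 (log2 fold change 0.03, adjusted p = 0.751).

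Of 18 tested regulators known to act on transferase genes, 5 were higher and 1 was lower. Hnf4a, a nuclear receptor of hepatocyte identity, was at 900, 809 and 829 in L-RalyKO and at 520, 542 and 680 in controls (log2 fold change 0.55, adjusted p = 0.0155). Nr1i2, which encodes the xenobiotic receptor PXR, rose by 0.33 on the log2 scale (adjusted p = 0.00725), and Nr1i3, which encodes CAR, one of −0.01 (adjusted p = 0.916).

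Nfe2l2, which encodes NRF2, was at 79.1, 79.5 and 71.1 against 89.2, 83.4 and 73.3, overlapping values (log2 fold change −0.09, 95% interval −0.27 to 0.08, adjusted p = 0.525). For its inhibitor Keap1 the log2 fold change was −0.10 (adjusted p = 0.326). The small MAF partners Mafg and Mafk rose by 0.35 and 0.27 on the log2 scale (adjusted p = 0.0111 and 0.0410), and Bach1, a repressor at the same elements, by 0.42 (adjusted p = 0.0430). These are transcript levels, and NRF2 is controlled mainly through the stability of its protein.

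Stat5b, which carries growth hormone signals in the liver, fell, from 57.5, 63.3 and 69.3 in controls to 48.4, 53.1 and 46.4 in L-RalyKO (log2 fold change −0.35, adjusted p = 0.0346), and Stat5a was at a log2 fold change of −0.36 (adjusted p = 0.0657). Rxra, Cebpa, Cebpb, Nfe2l1, Ahr, Arnt and Maff did not pass, with log2 fold changes between −0.10 (Ahr) and 0.19 (Cebpa).

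Target genes of NRF2 and of the receptors CAR and PXR, outside the transferase family, were compared for context. None of 16 tested NRF2 targets passed (limma, 1 at an unadjusted p under 0.05), with Nqo1 at a log2 fold change of −0.09, Ephx1, the most abundant, at 0.15 (adjusted p = 0.511) and Osgin1 at 0.83 (adjusted p = 0.0506). Of 14 tested CAR and PXR targets 2 were higher, Por (log2 fold change 0.60, adjusted p = 0.00531) and Cyp2c55 (0.42, adjusted p = 0.0365). In the same list 3 were lower, among them Cyp2c37 (−0.34, adjusted p = 0.0410). Cyp2b9 was at 0.873, 2.15 and 3.18 in L-RalyKO and at 65.2, 48.9 and 36.3 in controls (log2 fold change −4.10, adjusted p = 4.06e-04). Cyp2b13, at 0, 0.029 and 0.0526 in L-RalyKO and 2.12, 1.26 and 2.97 in controls, was lower too (adjusted p = 0.00363). Cyp2b10 of the same list was not called, at 10.0, 25.2 and 16.7 in L-RalyKO and 33.1, 15.7 and 22.7 in controls. Its groups overlapped (log2 fold change −0.47, adjusted p = 0.438). The most abundant of the list, Cyp3a11, was at a log2 fold change of −0.19 (adjusted p = 0.458). In all 11 of the 14 were negative (median −0.18) and 8 had an unadjusted p under 0.05, with sums of 9004 to 10151 in L-RalyKO and 10392 to 10788 in controls.

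**Figure D5:**
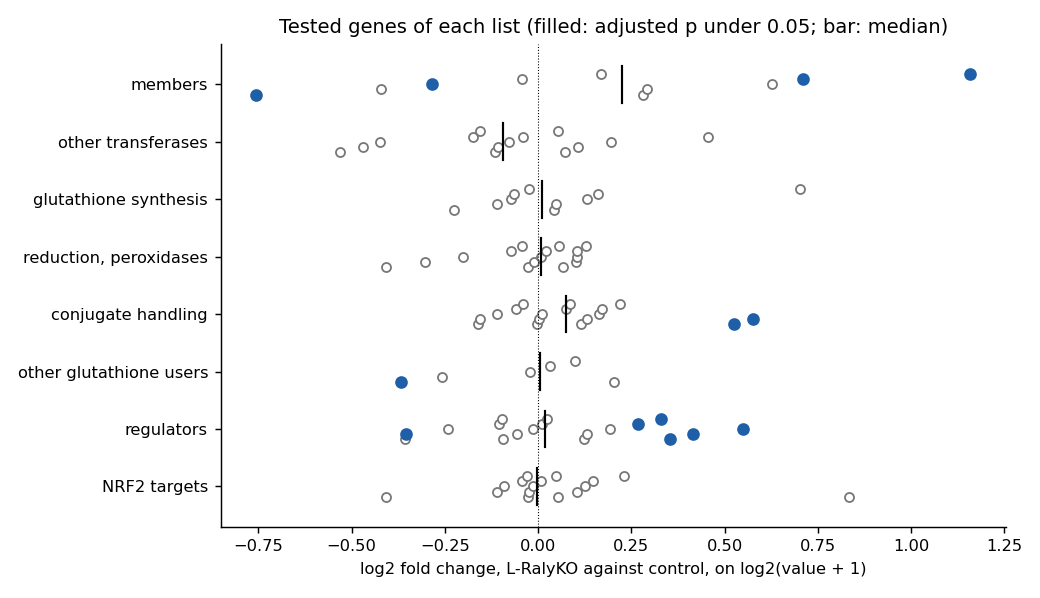
Log2 fold changes of the tested genes of 8 lists, the 10 members at the top, with vertical bars at each list's median and filled points for an adjusted p under 0.05. Synthesis, reduction and NRF2 target lists hold no filled point, and regulators hold 6.

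Liver zonation and cell types were looked at beside the members. Of 15 tested pericentral genes, 1 was higher (Cyp1a2, log2 fold change 0.48, adjusted p = 0.0441) and 2 were lower (Tbx3, −0.62, adjusted p = 0.00429, and Lgr5, −0.53, adjusted p = 0.0441), and the abundant Cyp2e1 was at 0.13 (adjusted p = 0.446). Of 12 tested periportal genes, Pck1 was higher (0.78, adjusted p = 0.00312) and G6pc lower (−0.61, adjusted p = 0.0125), with the abundant Cps1 at 0.32 (adjusted p = 0.0845). Of these 12, 10 had a positive log2 fold change (median 0.16) and 7 an unadjusted p under 0.05. Their summed level was between 16805 and 17773 in L-RalyKO and between 12945 and 15091 in controls, without overlap. Most of that sum, and of its difference between groups, was Pck1 (means 5448 in L-RalyKO and 3185 in controls) and Cps1 (5559 and 4452). Of the 15 pericentral genes 9 were positive (median 0.05) and 7 had an unadjusted p under 0.05, and their sums overlapped, at 12880 to 14155 against 11785 to 12998. The part of zonation in the transferase values was not tested.

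No tested marker of the cell type lists passed, with 6 of 6 hepatocyte, 6 of 7 Kupffer, 7 of 7 endothelial, 7 of 7 stellate, 4 of 7 cholangiocyte, 1 of 6 neutrophil and 4 of 5 erythroid markers tested. None of 7 lymphoid markers reached the mean needed for a test. The summed level of 6 hepatocyte markers was between 96393 and 97298 in L-RalyKO and between 87260 and 96222 in controls, so that the labelled tissue carried its defining markers in all mice. For Kupffer cells the sums were 153 to 196 against 148 to 221, for endothelial cells 206 to 260 against 232 to 243, for stellate cells 224 to 293 against 234 to 258 and for cholangiocytes 43.0 to 52.0 against 45.0 to 49.1. Lymphoid sums were 2.87 to 3.37 against 2.51 to 3.89, neutrophil sums 1.26 to 2.65 against 1.79 to 3.32, and erythroid sums 642 to 1260 against 666 to 1104. Apart from the hepatocyte markers, these sums overlapped between the groups, and their part in the transferase values was not tested. The hepatocyte sums of L-RalyKO mice lay above the controls by a narrow margin (96393 against 96222). Most of that sum was Alb, whose own values overlapped, at 70091 to 70819 in L-RalyKO and 63858 to 71897 in controls.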

How the data were processed

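Liver RNA-seq libraries of 6 mice were used, 3 for each group, with columns matched to mice by the virus and number in their names. The study's plot of these data states 4 mice per group, and 3 per group were analysed here. The deposited values are a normalized signal whose steps match read counts per gene divided by the effective size of the library, as inferred from the values. The methods describe stranded libraries of 150 bp reads, aligned with TopHat v2.0.2 to mm9, and FPKM from Cufflinks, and how the deposited values were made is not given in the sources used here. Every value was a whole multiple of 1 read (100% in each library, tolerance 0.001), which returned the reads. The ATAC-seq and ChIP-seq samples were not used here.

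Groups were compared with limma 3.58.1 (R 4.3.3) with an intensity trend on log2(value + 1), over 11580 genes with a mean of at least 1, and called at a Benjamini-Hochberg adjusted p under 0.05. Of 24054 genes, 6838 had no read. The labels give no origin of the mice beyond their group, and p values measure the spread between these animals. The code was tested on simulated data. Intervals are at the 95% level, and the number of mice limits precision more than depth. Alternatives were edgeR 4.0.16, DESeq2 1.42.0 and limma voom on recovered reads, other scalings, filters and a pseudocount of 0.1, no trend, a replicate block and leaving out each mouse. Sums and ratios of related genes were added after seeing the data.

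The members and the gene lists were chosen with earlier results of these data known. Genes named are the 10 members, every other transferase and regulator with a mean of at least 1, and in the other pathway lists those called and the most abundant. Cell type lists are given as sums. A regulator under this rule is not reported here. Gclc, Cbs, Nqo1, Hagh, Osgin1, Cyp2b10, Alb, Xist and Ddx3y are named in addition, a choice made once their values were known. Coordinates are from GENCODE vM1 on NCBIM37, and upstream sequences from RefSeq on GRCm38.p6.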

Additional observations from a re-analysis of the deposited data

How the results depend on the processing

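The 10 transferase genes gave 4 calls, and 4 also under edgeR, voom, both other scalings, a mean of at least 5 and the smaller pseudocount. DESeq2 called 7, of which 5 were higher. With no filter on low genes and without the intensity trend 3 were called, 1 of them lower. Leaving out 1 mouse gave 3 to 5 calls, 2 to 4 higher and 1 to 3 lower. Over the whole table, 758 genes were called, 484 with no filter, 536 without the trend, 1084 in DESeq2 and 335 to 812 without 1 mouse. Without L-RalyKO mouse 1 there were 335, mouse 2 440 and mouse 3 502, and without control mouse 1 368. Total count scaling turned the split of 389 higher and 369 lower into 325 and 470. The median of all genes moved by less than 0.1 on the log2 scale in every alternative. The cause of these shifts was not tested. Gsta4, Gstt2 and Mgst1, none of them called, changed sign in 2, 1 and 2 of 16 alternatives.

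The labels tie mice across groups by nothing but a number. Deviations of same-numbered mice correlated at 0.066, −0.024 and 0.020, and those of differently numbered mice at −0.088 to 0.060. With 3 mice per group these values cannot settle whether the mice were paired. A replicate block called 6 of the 10 members, 4 of them higher, and 704 genes in all.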
